A study of Macaca mulatta with 6 samples.

Results

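Collagens are the main structural proteins of the extracellular matrix, and their expression was compared between cortical neuron libraries of rhesus monkeys (Macaca mulatta) given morphine and given saline. The genes were taken by their symbols (COL, a number, A, a number), with a mean of at least 10 normalized counts over the 6 libraries. Of 41 collagen genes with a row in the deposited table, 40 reached that mean, out of 16595 genes that did so among 23191 in all. COL6A5, the gene that did not, had 5 reads in morphine library 3 and 0 in the other libraries, where a count of 0 allows up to 3 reads. The lowest mean that was kept was 10.6 normalized counts, for COL8A2, which had 60 reads in morphine library 1 and 0 in each of the others, so that it passed through 1 library alone. The next was COL4A6, at 18.0.

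There were 3 libraries of polyadenylated RNA per group, all labelled as neurons purified from the cortex of male monkeys 3 to 4 years old. Morphine, an opioid that acts mainly at the mu receptor, was given by subcutaneous injection, 3 a day over 90 days, starting at 3 mg/kg and reaching 15 mg/kg from day 29. Saline was given in the same way at 0.5 mL/kg. The series was made to ask how chromatin folding changes after long exposure to morphine. The protocol names 4 monkeys, 2 in each group, so at least 2 of the 3 libraries of a group share an animal, and the labels give 1 code to all libraries of a group. P-values therefore measure the spread between these samples only and are too small as tests over animals, and the treatment cannot be told apart from differences between the animals.

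Library totals lay between 31238653 and 36345095 reads. The libraries held transcripts of several cell types beside neurons. The summed level of 7 neuron markers was 159527 to 160344 normalized counts with morphine and 198339 to 206444 with saline, and that of 6 astrocyte markers was 163597 to 165165 and 218900 to 225285. The largest neuron marker was SNAP25, with means of 69525 with morphine and 101045 with saline. The largest astrocyte marker was SLC1A3 (82480 and 123564). Of these neuron markers 4 fell and 1 rose (RBFOX3), while SLC17A7 and GAD1 did not pass. Of the astrocyte markers 5 fell and 1 rose (GFAP, 40539 with morphine and 30493 with saline). Of 5 microglia markers 4 rose and 1 fell (summed level 7405 to 7873 in morphine and 4985 to 5287 in saline libraries), and of 6 oligodendrocyte precursor markers 3 rose and 0 fell (27205 to 27409 and 26211 to 27718). These counts are to be read against the 27.9% of all genes tested that were called (limma, adjusted p below 0.05). No marker tested in these lists was at 0 in any library, and the part of these cell types in the collagen values was not tested. In bulk libraries, fewer cells of a type and less RNA per cell cannot be told apart.

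A collagen is built of chains that wind around each other through long stretches in which glycine recurs at regular steps, and each gene encodes 1 chain. Fibrillar collagens pack side by side into the banded fibrils of fibrous tissue, and FACIT collagens sit on the surface of such fibrils. Type IV collagens form the sheet-like network of basement membranes, which in brain surrounds blood vessels and lines the surface under the meninges. Type VI collagens form beaded microfibrils, transmembrane collagens are anchored in the cell surface, and multiplexins are found at basement membrane zones. In brain, fibrillar collagens are mainly made by fibroblasts of the meninges and of larger vessels, while type IV collagens come mainly from vessel cells.

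Collagen genes changed in both directions, with more rises than falls. The genes that changed were 7 of 10 fibrillar, 3 of 4 type VI, 5 of 10 FACIT and 1 of 2 multiplexin genes. No type IV or transmembrane gene passed, and the difference between classes was not tested. Of 40 collagen genes, 12 were called higher and 4 lower with morphine (limma, Benjamini-Hochberg adjusted p below 0.05), or 40% in all. Over all genes tested the share called was 27.9%, with 12.9% of genes rising and 15.0% falling. Among genes with a mean of at least 50, fitted alone, 35.8% were called, and 16 of the 34 collagen genes there. The 3 values of a group lay apart from the 3 of the other for 22 collagen genes (55.0%), and for 48.7% of all genes. The median log2 fold change was 0.29 over the collagen genes and 0.01 over all genes tested. A value above 0 was found for 28 collagen genes (70.0%), beside 50.6% of all genes tested. The 28 include COL8A2, which had reads in 1 library only. With the edgeR quasi-likelihood test on recovered reads, 15 collagen genes rose and 5 fell, beside 34.0% of all genes called. With DESeq2 on the same reads 16 rose and 4 fell, beside 36.8% of all genes, and the authors' deposited table has 15 higher and 4 lower, beside 34.1%. Collagen genes as a whole took 0.134% to 0.136% of reads in morphine libraries and 0.116% to 0.120% in saline libraries, so the groups did not overlap in this share.

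**Figure D1:**
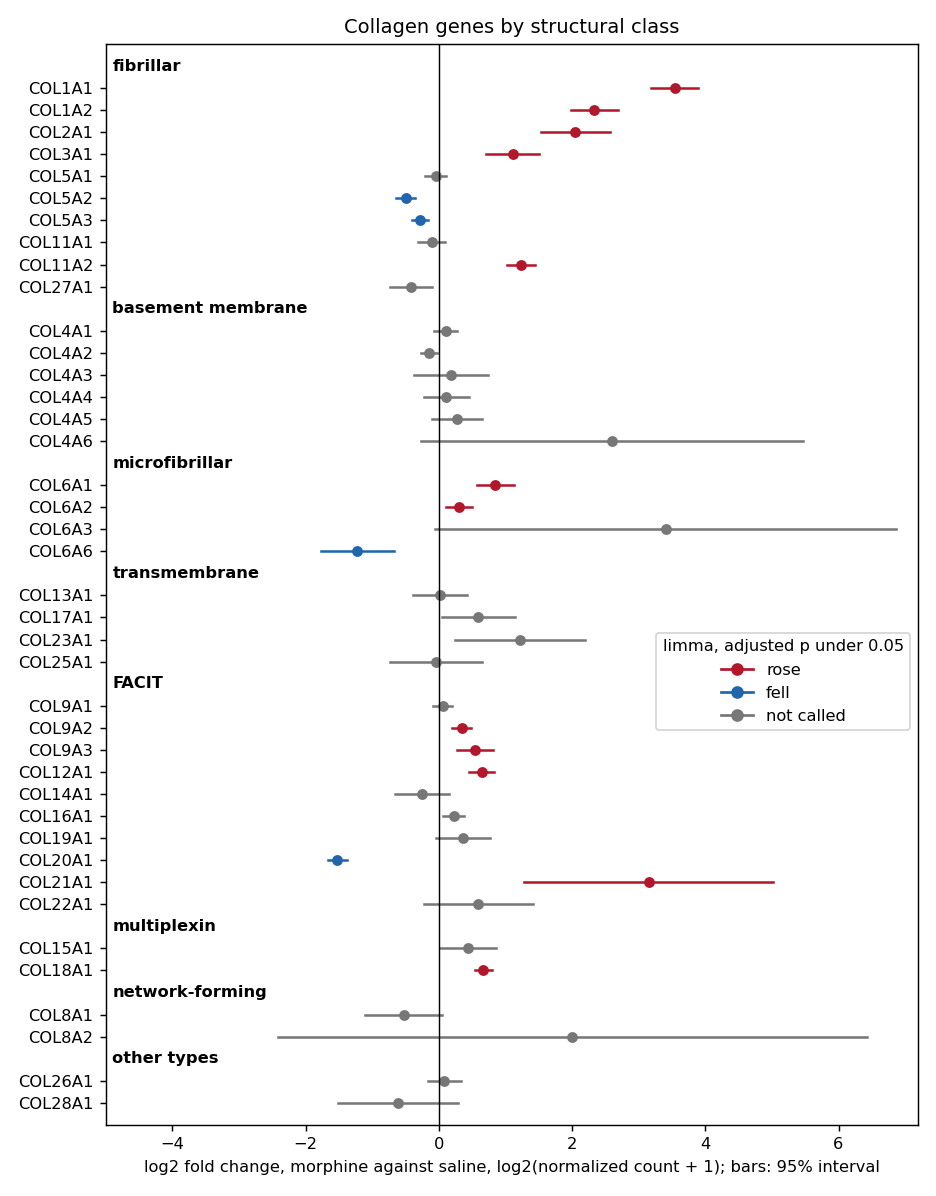
Log2 fold change of each of the 40 collagen genes, morphine against saline on the log2(normalized count + 1) scale, with 95% intervals from limma, ordered by structural class and coloured by call. The called genes COL1A1, COL21A1, COL1A2 and COL2A1 lie above 2, and no type IV gene is called. COL6A3, COL4A6 and COL8A2 also lie above 2 but are not called. These genes have few reads and the widest intervals.

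Of 10 fibrillar genes 5 rose and 2 fell, with a median log2 fold change of 0.53 and a range from -0.50 to 3.54. The chains of type I collagen, the main collagen of fibrous tissue, rose most. COL1A1 (ENSMMUG00000001467) had 213, 209.7 and 182 normalized counts with morphine (libraries 1, 2 and 3) and 19.7, 14.0 and 15.8 with saline, in the same order of libraries. All morphine values were thus far above all saline values, with a ratio of means of 12.2. COL1A1 rose by 3.54 ± 0.141 on the log2 scale (SE, limma adjusted p = 0.00104). Its partner chain COL1A2 (ENSMMUG00000039654) had 650.4, 670.0 and 683 normalized counts with morphine and 126, 112 and 160.3 with saline. These groups lay apart too, and COL1A2 rose by 2.34 ± 0.139 (adjusted p = 0.00182, limma). COL3A1, the chain of type III collagen of vessel walls and soft tissue, had 521, 418 and 389 normalized counts with morphine against 181, 238 and 194 with saline. It rose by 1.11 ± 0.157 (limma adjusted p = 0.00856), a smaller value than those of the type I chains.

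Among the fibrillar chains best known from cartilage, COL11A2 and COL2A1 rose, while COL11A1 and COL27A1 did not pass. COL11A2, a chain of type XI collagen, which limits fibril width, had 3547, 3422 and 2961 normalized counts in the morphine and 1426, 1417 and 1357 in the saline libraries. Every morphine value was above every saline value, and the log2 fold change was 1.24 ± 0.0841 (limma adjusted p = 0.00212). COL2A1, the chain of type II collagen, was low, with 74.4, 76.3 and 61.5 normalized counts with morphine and 17.8, 12.0 and 20.0 with saline. It rose by 2.05 ± 0.205 (limma adjusted p = 0.00421). COL11A1, the partner of COL11A2, did not pass, with 1623 ± 88.1 normalized counts with morphine and 1753 ± 133 with saline (SD, n = 3 libraries per group). The 95% interval of its log2 fold change, -0.31 to 0.09, did not reach the size of the rise in COL11A2.

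The falls among fibrillar genes were in type V collagen, which is blended into type I fibrils and controls their width. COL5A2 had 1609, 1509 and 1602 normalized counts with morphine and 2150.1, 2296 and 2208 with saline, and it fell by 0.50 ± 0.0561 on the log2 scale (limma adjusted p = 0.00527). COL5A3 had 2258, 2350.4 and 2327 normalized counts with morphine and 2868, 2801 and 2787 with saline. It fell by 0.29 ± 0.0474 (limma adjusted p = 0.0131), and for both genes the groups lay apart. COL5A1, the chain found in most type V molecules, did not pass, at 1501, 1385 and 1537 normalized counts with morphine and 1484, 1523 and 1564 with saline (95% interval of the log2 fold change -0.20 to 0.11). COL27A1, a fibrillar collagen of growing cartilage, had 239 ± 35.2 and 317 ± 19.9 normalized counts, and its log2 fold change of -0.42 did not pass (limma adjusted p = 0.0632).

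**Figure D2:**
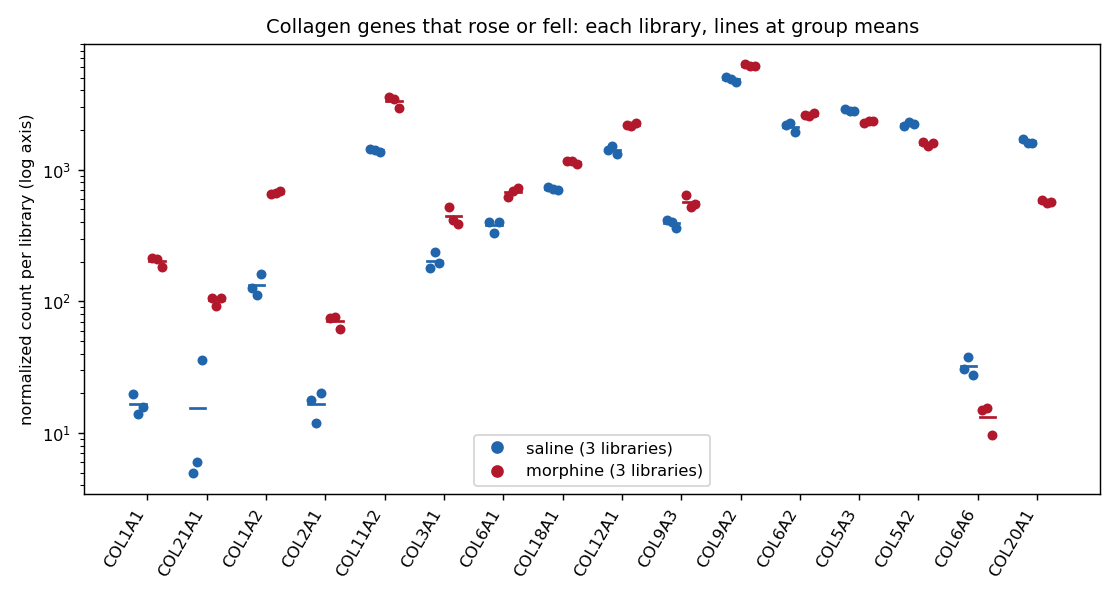
Normalized count (log axis) in each of the 3 saline and 3 morphine libraries for the 16 collagen genes that rose or fell, ordered by fold change, with a line at each group mean. The groups do not overlap for any of the 16 genes, which were chosen by a test on these same values. Of all genes tested, 48.7% do not overlap. COL21A1 has 1 saline library at 35.9, while the others are at 4.93 and 6.01.

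No type IV gene passed the test (0 of 6 in limma), with a median log2 fold change of 0.15. The unadjusted limma p of COL4A2 was 0.0276, and the share of all genes under an unadjusted 0.05 was not computed. Of the 6 genes, 1 was called in edgeR and 2 in DESeq2, beside 34.0% and 36.8% of all genes. COL4A1 and COL4A2 make the common network of basement membranes, including those of brain vessels. COL4A1 had 1920.4, 1677 and 1812 normalized counts with morphine and 1651, 1688 and 1689 with saline, and these ranges overlapped. Its log2 fold change was 0.10, with a 95% interval of -0.07 to 0.27. COL4A2 had 5320.2, 5295 and 5531 normalized counts with morphine and 5948, 5899.7 and 5964 with saline. Its groups lay apart by a small step, a log2 fold change of -0.14 with a 95% interval of -0.26 to -0.02 (limma adjusted p = 0.0797). COL4A2 was called lower in edgeR (adjusted p = 0.0182), in DESeq2, in limma with an intensity trend and in the authors' deposited table.

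The other type IV chains belong to networks of specialised basement membranes, such as those of kidney and muscle. COL4A3, COL4A4 and COL4A5 had log2 fold changes of 0.18, 0.11 and 0.27, and the largest upper bound of their 95% intervals was 0.73. COL4A6 had 12.8, 25.4 and 49.96 normalized counts with morphine and 15.8, 4.01 and 0 with saline, and its groups overlapped. Its log2 fold change of 2.59 did not pass in limma (adjusted p = 0.149), and its interval ran from -0.27 to 5.46. It was 3.56 without saline library 1 and 1.53 without saline library 3, and neither passed (adjusted p = 0.0687 and 0.244 in limma).

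Of 4 type VI genes 2 rose and 1 fell, with a median log2 fold change of 0.58. COL6A1 had 616, 689 and 732 normalized counts with morphine and 401, 333 and 401 with saline. It rose by 0.85 ± 0.109 (limma adjusted p = 0.00711). COL6A2, which assembles with it, had 2597, 2572 and 2675 with morphine and 2168, 2258 and 1916 with saline. It rose by 0.31 ± 0.0772 (limma adjusted p = 0.0381) but did not pass without morphine library 1, 2 or 3 or saline library 1 or 3 (adjusted p = 0.0964, 0.0944, 0.107, 0.0788 and 0.0613 in limma). The large chain COL6A3 had 41.4, 125 and 108 normalized counts with morphine and 0, 19.0 and 23.2 with saline. These values did not overlap, yet their spread was wide and the log2 fold change of 3.41 did not pass (limma adjusted p = 0.124). It was 1.92 without saline library 1, where COL6A3 had 0 reads, and 4.09 and 4.22 without saline libraries 2 and 3. COL6A3 passed in edgeR (adjusted p = 0.0372) but not in DESeq2 (0.107) or the authors' deposited table (0.127). COL6A6, a chain that can stand in for COL6A3, moved the other way. It had 14.9, 15.4 and 9.61 normalized counts with morphine and 30.6, 38.1 and 27.4 with saline, and it fell by 1.22 ± 0.217 (limma adjusted p = 0.0156), though not in DESeq2 (adjusted p = 0.0767).

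None of the 4 transmembrane collagens passed in limma, with a median log2 fold change of 0.30. The unadjusted limma p was 0.0238 for COL23A1 and 0.0374 for COL17A1, and the share of all genes under an unadjusted 0.05 was not computed. Of the 4 genes, 1 was called in edgeR and 1 in DESeq2, beside 34.0% and 36.8% of all genes. COL25A1, the collagen-like protein of neurons that also occurs in amyloid plaques, had 145, 80.8 and 119 normalized counts with morphine and 98.7, 149 and 103 with saline. The groups overlapped, and the 95% interval of the log2 fold change was wide, from -0.73 to 0.65. COL13A1, known from the junction of nerve and muscle, had 315 ± 30.4 and 314 ± 57.5 normalized counts. COL23A1 had 158, 149 and 156 with morphine and 35.5, 82.2 and 97.0 with saline. Its morphine values were close together and above all saline values, but saline library 1 was far below the other two. The log2 fold change of 1.22 did not pass (limma adjusted p = 0.0720). It was 0.78 without saline library 1 and then passed (adjusted p = 0.0195 in limma), and it passed in edgeR (adjusted p = 0.0316). COL17A1, a component of the junctions that hold skin cells to their base, had a log2 fold change of 0.59 (limma adjusted p = 0.0980).

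Of 10 FACIT genes 4 rose and 1 fell, with a median log2 fold change of 0.35, and the fall was the largest drop of any collagen gene here. COL20A1 had 589.8, 556 and 564 normalized counts with morphine and 1722, 1602 and 1601 with saline. Its saline mean was 2.88 times its morphine mean, and it fell by 1.52 ± 0.0576 on the log2 scale (limma adjusted p = 0.00104). COL21A1 had 106, 91.7 and 107 normalized counts with morphine and 4.93, 6.01 and 35.9 with saline. It rose by 3.15 ± 0.737 (limma adjusted p = 0.0322), and it did not pass without morphine library 1, 2 or 3 (adjusted p = 0.0893, 0.0852 and 0.0896 in limma) or saline library 1 or 2 (0.0787 and 0.0920). Without saline library 3, the highest of its group, the log2 fold change was 3.99 (limma adjusted p = 0.00573). The edgeR test called COL21A1 too (adjusted p = 0.0124). COL12A1, which links fibrils in tendon and fascia, had 2179.7, 2135 and 2279 with morphine and 1414, 1509 and 1309 with saline, and it rose by 0.64 ± 0.0717 (limma adjusted p = 0.00514).

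The chains of type IX collagen, which coats cartilage fibrils, did not all pass. COL9A2 had 6297, 6102 and 6081 normalized counts with morphine and 5061, 4904 and 4629.7 with saline, and it rose by 0.34 ± 0.0562 (limma adjusted p = 0.0129). COL9A3 had 642, 520.2 and 546 with morphine and 415, 399 and 359 with saline, and it rose by 0.54 ± 0.106 (limma adjusted p = 0.0207). COL9A3 did not pass without morphine library 3 or saline library 2 or 3 (adjusted p = 0.0552, 0.0584 and 0.0569 in limma). COL9A1 had 5170.2 ± 213 and 4969.7 ± 167 normalized counts, and its groups overlapped (95% interval of the log2 fold change -0.09 to 0.20). COL16A1 lay just outside the threshold, with 2533 ± 90.8 and 2169.9 ± 112 normalized counts, groups that lay apart and a log2 fold change of 0.22 (limma adjusted p = 0.0516). It passed in edgeR (adjusted p = 0.0185). COL14A1, COL19A1 and COL22A1 had overlapping groups and log2 fold changes of -0.25, 0.37 and 0.59.

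COL18A1, a multiplexin whose end fragment is endostatin, had 1167, 1157 and 1104 normalized counts with morphine and 734, 719 and 699 with saline. Its groups were tight and lay apart, and it rose by 0.67 ± 0.0517 (limma adjusted p = 0.00266). The other multiplexin, COL15A1, had 445 ± 57.3 and 329 ± 56.4 normalized counts, with overlapping groups (limma adjusted p = 0.108). Of the network-forming genes, COL8A1, found in vessel walls and under the corneal endothelium, had 113 ± 17.9 and 166 ± 40.8. Its log2 fold change of -0.53 did not pass (limma adjusted p = 0.147), but it was -0.75 and passed without saline library 3 (adjusted p = 0.0446 in limma). COL8A2 had reads in 1 library only and is not read as a difference. COL26A1 and COL28A1 had overlapping groups and log2 fold changes of 0.08 and -0.61.

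Summed over a class, collagen counts had ratios nearer to 1 than those of the genes that changed most. These sums are not scaled by gene length and serve only to compare libraries. Summed fibrillar counts were 11914 ± 361 with morphine and 10400.2 ± 225 with saline, a ratio of 1.15. Summed type IV counts were 8351 ± 111 and 8589.7 ± 116, a ratio of 0.972 with overlapping groups, and COL4A2 alone held 66.8% of them. The type VI sum was 3399 ± 127 and 2538 ± 150, a ratio of 1.34, of which COL6A2 held 79.7%. The multiplexin sum had the highest ratio, 1.52, and the transmembrane sum had a ratio of 1.19 with overlapping groups.

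**Figure D3:**
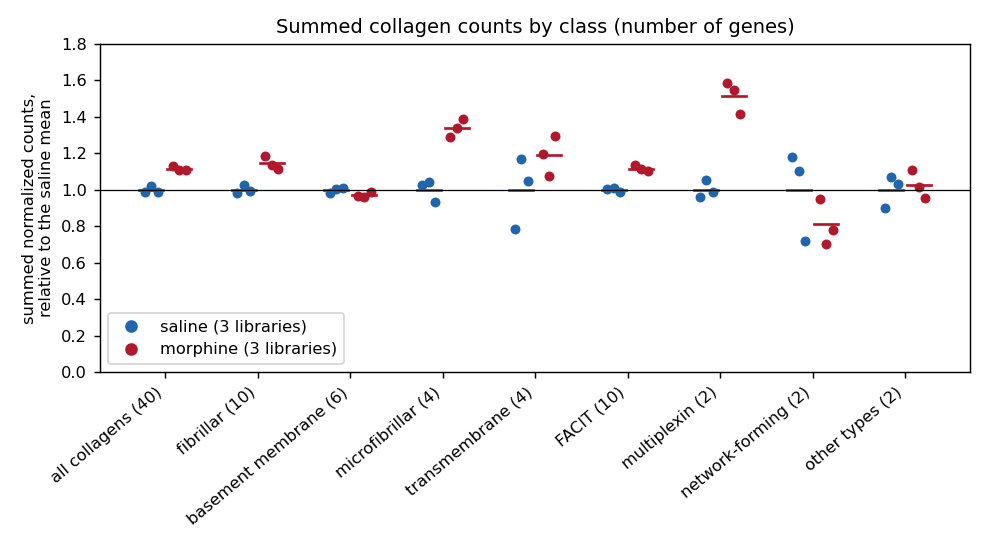
Summed normalized counts of each collagen class in each library, relative to the mean of the saline libraries, with the number of genes in brackets and lines at group means. Morphine libraries lie above all saline libraries for the fibrillar, microfibrillar, FACIT and multiplexin classes and overlap with saline for the basement membrane, transmembrane, network-forming and other types.

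The balance between chains that assemble into the same collagen was described by ratios. The log2 ratio of 2 partner genes was taken within each library for 10 pairs. The ratio itself depends on gene length, and only its difference between groups is read. That difference in means is the log2 fold change of the first gene minus that of the second, so it is not separate evidence. For 8 of the 10 pairs the 3 morphine ratios lay apart from the 3 saline ratios, which has no background here since ratios of other gene pairs were not computed. One of the 8, COL6A2 to COL6A3, includes a saline library with 0 reads of COL6A3. Each of these had an exact two-sided permutation p of 0.1, the smallest that 3 against 3 libraries can give, and 0.125 after adjustment over the 10 pairs, so none could pass. The ratio of COL11A1 to COL11A2 was lower in morphine libraries by 1.35 on the log2 scale (means -1.02 and 0.32). That of COL1A1 to COL1A2 was higher by 1.20 (-1.73 and -2.93), and that of COL6A1 to COL6A2 by 0.54. COL5A1 to COL5A2 was higher by 0.45 (-0.09 ± 0.0324 and -0.54 ± 0.0479), COL4A1 to COL4A2 by 0.25. The ratios of COL9A1 to COL9A2 and of COL9A2 to COL9A3 differed by -0.28 and -0.20. Ratios with COL4A6 or COL6A3 spread widely between libraries, and the ratio of COL4A3 to COL4A4 overlapped between groups.

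**Figure D4:**
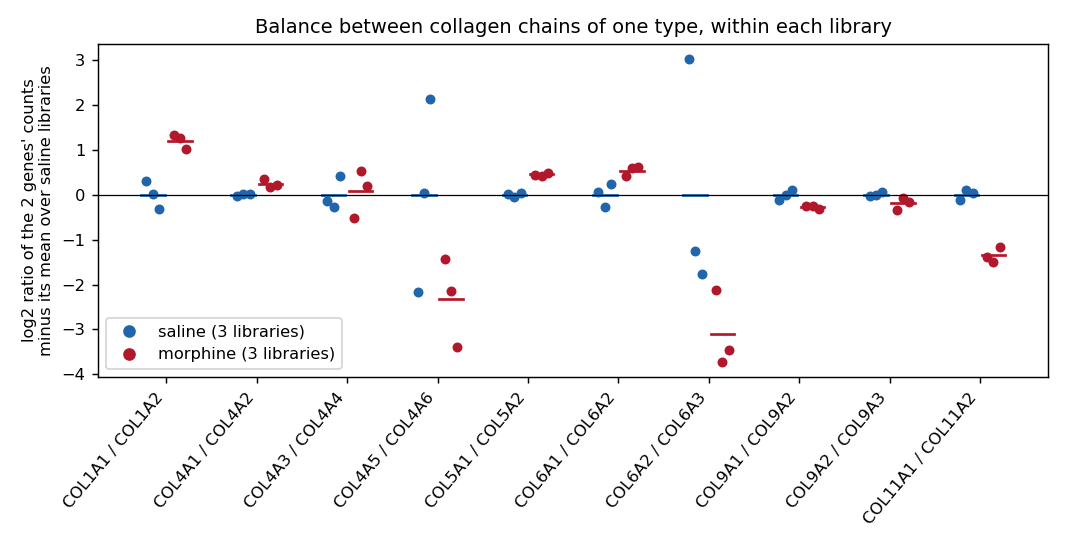
Log2 ratio of the normalized counts of 2 partner chains in each library, minus the mean ratio of the saline libraries, for 10 pairs, with lines at group means. Each difference in means is the log2 fold change of the first gene minus that of the second. The morphine ratio of COL11A1 to COL11A2 lies 1.35 below saline and that of COL1A1 to COL1A2 lies 1.20 above. The ratios of COL4A5 to COL4A6 and of COL4A3 to COL4A4 overlap.

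Some collagen genes lie next to each other in the genome. In the RefSeq gene order of the rhesus assembly T2T-MMU8v2.0, which was used only for gene order, 6 pairs were adjacent with no other protein-coding gene between them. COL3A1 and COL5A2 are such a pair, and the first rose by 1.11 while the second fell by 0.50. COL6A1 and COL6A2 both rose. COL4A1 and COL4A2, COL4A3 and COL4A4, and COL9A1 and COL19A1 did not pass in either member. In the remaining pair, COL6A5 was too low to test and COL6A6 fell.

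Genes that act on collagen were described with lists fixed for this work, each to be read against the 27.9% of all genes called. Of 20 genes that fold and modify collagen chains 6 rose and 2 fell, with a median log2 fold change of 0.12. COLGALT1, which adds galactose to hydroxylysine, had 959.7, 773 and 1113 normalized counts with morphine and 440.1, 345 and 346 with saline, and it rose by 1.32 ± 0.173 (limma adjusted p = 0.00729). PLOD3 and P3H1, which hydroxylate lysine and proline, rose by 0.36 and 0.39. The folding helper FKBP14 fell by 0.77 (limma adjusted p = 0.00602).

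Of 10 genes tested for removal of propeptides and cross-linking 5 rose and 0 fell, with a median of 0.55. LOX, LOXL2 and LOXL4 were not matched by symbol and so not tested. PCOLCE, which speeds the trimming of procollagen, had 307, 256 and 303 normalized counts with morphine and 43.4, 80.2 and 35.9 with saline, and it rose by 2.50 ± 0.311 (limma adjusted p = 0.00650). BMP1, the protease that it assists, rose by 0.61 and the cross-linking enzymes LOXL3 and LOXL1 by 0.79 and 0.77. A link between the procollagen-handling genes that rose and COL1A1 or COL1A2 was not tested.

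Of 10 collagen receptors 3 rose and 1 fell (median -0.04). ITGB1, the shared beta chain of collagen-binding integrins, fell by 0.46 (limma adjusted p = 0.00425). LAIR1, an inhibitory receptor of immune cells, rose by 0.74, ITGA10 by 0.83 and the uptake receptor MRC2 by 0.36. Of 9 tested genes of collagen turnover the matrix proteases MMP2 and MMP16 rose, by 0.76 and 0.43, and 0 fell. MMP14 had a log2 fold change of 1.51 that did not pass (limma adjusted p = 0.0880). MMP1, MMP8 and MMP13 were too low to test, and TIMP3 and CTSK were not matched by symbol.

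Of 14 basement membrane partners tested 6 rose and 0 fell (median 0.27), and LAMA1 and LAMA5 were not matched by symbol. Of the type IV genes 0 of 6 passed, and the difference was not tested. The laminin genes LAMA3, LAMC3 and LAMB3 rose by 1.25, 0.80 and 0.82, and PXDN, which cross-links type IV collagen, rose by 0.77. Of 10 partners of collagen fibrils 1 rose and 3 fell. BGN, a small proteoglycan, rose by 0.54, and TNXB, FN1 and FBN1 fell by 0.34, 0.21 and 0.24. Of 13 regulators of collagen genes 0 rose and 2 fell in limma, with a median of -0.21. These were the growth factor genes TGFB2, from 2435 to 1276 normalized counts (fell by 0.93 ± 0.0542, limma adjusted p = 0.00179), and TGFB3 (fell by 0.37). LARP6, which binds the mRNA of type I collagen, had 1045 reads in morphine library 1 and 1062 in saline library 2, and 0 to 5 in each of the other 4, so single genes of this table can be present or absent by library regardless of group.

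Of 9 fibroblast and leptomeninges markers 3 rose and 0 fell, or 33.3%, near the 27.9% of all genes called. Their summed level was 9888 to 10376 normalized counts with morphine and 8882 to 9053 with saline. Its largest member was PDGFRA, also in the oligodendrocyte precursor list, with means of 5042 with morphine and 4522 with saline. The log2 fold change was above 0 for 7 markers and below 0 for 2, FBLN1 and FOXC1 (-0.14 and -0.15). ISLR rose by 3.15 ± 0.36, from 32.6 to 277 normalized counts (limma adjusted p = 0.00543), and CEMIP and ALDH1A2 rose by 0.74 and 0.55. DCN, a small proteoglycan of fibroblasts, had 1325, 1277 and 1355 normalized counts with morphine and 1231, 1152 and 1249 with saline, and the groups lay apart by a small step. Its log2 fold change of 0.12 did not pass (limma adjusted p = 0.170), with a 95% interval of -0.02 to 0.27. LUM had a log2 fold change of 0.27 with a 95% interval of -0.19 to 0.73.

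Of 7 endothelial markers 0 rose and 3 fell, or 42.9%, beside the 27.9% of all genes called. Their summed level was 7423 to 7799 in morphine and 9618 to 9799 in saline libraries. PECAM1, FLT1 and TEK fell by 0.52, 0.61 and 0.75. Of 7 mural cell markers 3 rose and 1 fell, or 57.1% (summed level 9722 to 10082 and 8809 to 9246). The contractile genes ACTA2, MYH11 and TAGLN of smooth muscle rose by 0.78, 0.77 and 0.54, the pericyte gene RGS5 fell by 0.68, and PDGFRB had a log2 fold change of -0.03. None of the markers tested in these 3 lists was at 0. Their part in the collagen values was not tested.

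**Figure D5:**
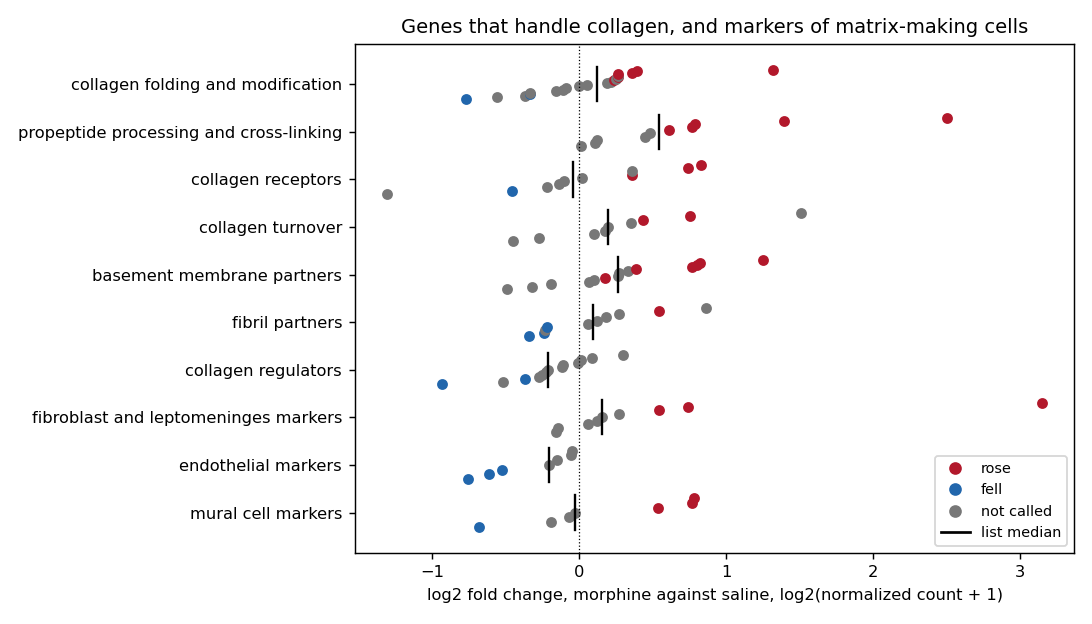
Log2 fold change, morphine against saline, of each tested gene in 7 lists of genes that act on or with collagen and 3 lists of cell markers, coloured by limma call, with a line at each list's median. Genes of propeptide processing all lie above 0 and reach 2.50 (PCOLCE), endothelial markers all lie below 0, and ISLR stands apart at 3.15 among the fibroblast markers.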

How the data were processed

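Polyadenylated RNA was sequenced in 6 libraries. Tools listed without a role, per the submitters' processing notes, were DESeq2 1.18.1, StringTie and Bowtie2 2.1.0, with the build hg19, while the identifiers are rhesus Ensembl genes. The counting annotation and use of strand are not given in the sources used here, so no coordinates or sequences are printed. Judged by the values and per the file headers, the authors deposited normalized counts, a signal of reads divided by 1 size factor per library, with their log2 fold changes, a test statistic (a score) and p-values. Multiplied back by each size factor, 100% of values lay within 0.001 of an integer. A table of gene names matched 15436 of 23191 identifiers. The test was limma 3.58.1 (R 4.3.3) on log2(value + 1) with group as the only term, on genes with a mean of at least 10, with two-sided p-values adjusted by Benjamini-Hochberg over 16595 genes. A fold change is the difference of group means on this scale. For low genes the pseudocount pulls it toward 0, while a wide spread within a group can push it past the ratio of group means. For COL21A1, with saline libraries at 4.93, 6.01 and 35.9 normalized counts, the fold change was 3.15, against 2.71 in DESeq2. Prior degrees of freedom were 1.27. Code was tested on simulated data.

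The alternatives were TMM and upper-quartile scaling, a minimum mean of 50 or none at all, a pseudocount of 0.5 or 5, a replicate block, an intensity trend, an adjusted p under 0.01, each library left out, edgeR 4.0.16 and DESeq2 1.42.0 on recovered reads (5636 and 6105 genes called), and the authors' deposited comparison. Libraries within a group differed by more than sampling noise (median chi-square over genes 2.60 to 3.19 per pair, where sampling alone gives 0.455, and mean 17.5 to 23.8). The rule for named genes was values per library for collagen genes that passed and for the most abundant member of each class, up to 4 members of each other list with the smallest adjusted p, and defining markers of fibroblasts, endothelial and mural cells. The members, classes and lists were chosen with earlier results of these data known, and LARP6 and the per-library values of COL4A1, COL4A6, COL5A1, COL6A3, COL23A1 and COL25A1 were added after their values were seen. Lists count only genes matched by symbol and with a mean of at least 10. Not matched were GP6, LOX, LOXL2, LOXL4, TIMP3, CTSK, LAMA1, LAMA5, SPARC, THBS2, SMAD7, SOX9, SLC6A13, CLDN5, KCNJ8 and AIF1. Below that mean were MMP1, MMP8, MMP13 and DPT. DCN, LUM and OGN are in 2 lists, as is PDGFRA. Partner ratios used SciPy 1.17.1, and figures Matplotlib 3.10.9. The limit given for a count of 0 covers only counting error.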

Additional observations from a re-analysis of the deposited data

How the results depend on the processing

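None of the 16 collagen genes called changed sign in any of the 18 alternatives, and 9 of them stayed past the threshold wherever they were tested. With an adjusted p under 0.01, 8 rose and 2 fell, and 1532 of all genes were called. The labels number the libraries alike in both groups, but same-numbered libraries did not deviate together (r = -0.06, -0.0039 and -0.03 across genes). With the replicate block 7 collagen genes rose and 3 fell, and 1577 of all genes were called, from 4631 without it. Without a filter on low values 2993 genes were called. Leaving out 1 library gave 9 to 11 collagen rises, 4 or 5 falls and 2536 to 3181 genes called in all. It turned the sign of 3 genes that did not pass: COL4A4 ranged from -0.0017 to 0.20, COL13A1 from -0.14 to 0.12 and COL25A1 from -0.23 to 0.19. Of the 24 genes that did not pass, 8 passed in at least 1 alternative, and 16 in none. The causes were not tested. COL8A2 could not be fitted without morphine library 1. COL4A6, COL6A3, COL8A2 and COL21A1 moved most when 1 library was left out. Depth limits what can be said of COL6A5, with 5 reads in all.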
